A study of Danio rerio with 32 samples.

Results

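Cultures of zebrafish (Danio rerio) muscle cells at day 10 of differentiation were compared with cultures at day 4. The arrays were chosen by the day in their titles, which gave 5 arrays of day 10 (A and B of array batch 1, and A, B and C of batch 2) and 6 arrays of day 4 (A and B of batch 1, and A to D of batch 2), together 11 of the 32 arrays of the series. In the study, mononuclear myogenic cells from the dorsal muscle of adult fish were expanded in Promocell growth medium with 20% fetal bovine serum and fibroblast growth factor, then differentiated in Promocell medium with 2% horse serum, and their total RNA was hybridized to Affymetrix Zebrafish Genome Arrays, which measure each gene with one or more probe sets. All 11 arrays share this tissue, way of isolating cells and medium, and the labels give no genotype or further treatment. The medium is named here as in the labels, whereas the methods of the paper put the horse serum in Dulbecco modified Eagle medium. According to the paper, each preparation pooled adult fish, and the arrayed cells were of a transgenic line with red fluorescent protein under an α-actin promoter, while the labels name no line for any array or batch. The paper calls the A and B arrays biological duplicates. Whether they, or C and D, came from separate preparations of fish or from separate cultures of 1 preparation is not stated, so the p-values cover the spread between these arrays and perhaps not that between preparations. Arrays are written below as day, batch and letter, so that 4 1B is array B of batch 1 at day 4.

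Myoblasts that leave the cell cycle align, fuse and form multinucleated myotubes, which then assemble actin, myosin and their regulators into sarcomeres. Fibroblasts, which are part of skeletal muscle and also attach and grow in culture, make the collagens, the other proteins of the extracellular matrix and the enzymes that cut them. Cells that replicate their DNA carry high levels of the replication helicase and its loading factors, and dividing cells those of the spindle. In RNA from a whole culture, fewer cells of a type and less RNA per cell cannot be told apart.

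Before the results, some features of the arrays are given. First, the labels grade 4 2B, 4 2C and 4 2D as poor and the other 8 arrays as good, so every poor array was of day 4. The 11 arrays were hybridized in 4 runs, of which 1 held all 4 arrays of batch 1, 1 held 4 2A and 10 2A, 1 held 4 2B and 4 2C with no array of day 10, and 1 held 4 2D, 10 2B and 10 2C. With the run as a block, 4 2B and 4 2C therefore added to the estimate of the spread but not to the difference between the days. Second, 4 1B resembled the day 10 arrays of its own batch and run. Its correlation across probe sets was 0.951 with 10 1A and 0.945 with 10 1B, against 0.898 with 4 1A. With the day 10 arrays of batch 2 it was 0.9 to 0.906, no higher than the 0.906 with 4 2C. Next, 4 1A, although labelled good, was dim, with a mean signal before scaling of 52.5 against 122 to 133 on the other arrays of batch 1. Its mean correlation with the day 10 arrays, 0.833, was the lowest of all 11 arrays. Last, the control probe set for DsRed, a red fluorescent protein, read 18.3 on 4 1A, 9310.0 on 4 1B, 10220 on 10 1A and 12520 on 10 1B, while the 7 arrays of batch 2 read 4.3 to 163. GAPDH probe sets at the 3′ and 5′ ends, whose ratio rises as RNA is degraded, gave ratios of 1.3 to 6.99 at day 4 and 1.26 to 12 at day 10. The highest were 8.73 on 10 2B and 12 on 10 2C, both labelled good. Array 4 2D of the same run, labelled poor, read 2.45. The label thus did not follow this ratio, and fits without the poor arrays still hold 10 2B and 10 2C. The part of RNA degradation in the changes was not tested. Of the skeletal muscle markers desma, acta1a, myod1, myog, ckma, mylpfa and cav3, all 7 measured (of 9 chosen), the summed signal was 667 to 14394 at day 4, with the highest value on 4 1B, and 10795 to 15893 at day 10. The summed signal of 4 fibroblast markers (col1a1a, col1a2, dcn and postnb) was 9400 to 31114 at day 4 and 40325 to 63982 at day 10. Markers of both kinds of cell thus gave signal at both days, but the muscle sum was only 667 on 4 2C, and the lowest muscle marker signal was 27.3. The presence of either kind of cell on each array was not tested.

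Values are quantile normalized signals in arbitrary units, with the day 10 arrays in the order 10 1A, 10 1B, 10 2A, 10 2B and 10 2C. Changes are differences in log2(signal + 32), day 10 minus day 4, with their standard error, from limma with the run as a block, and calls were made where the p adjusted by the method of Benjamini and Hochberg was under 0.05. The scale understates the change of dim genes. Of 15502 probe sets, 487 rose (3.14%) and 273 fell (1.76%). Of 8793 genes, each represented by its brightest probe set, 298 rose (3.39%) and 221 fell (2.51%), and the median change of all genes was -0.07. On every array of day 10, 302 genes (3.43%) were above every array of day 4, and 292 genes (3.32%) were below. The split between rises and falls depended on the normalization. With the authors' scaling alone 350 probe sets were higher and 479 lower, the median change of all probe sets then being -0.33 in place of -0.02.

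The result was partly kept without the arrays labelled poor. All 298 genes that rose and all 221 that fell kept their direction, with a median change of 1.46 (against 1.44 over all arrays) and -1.21 (against -1.24). These genes were called on the same good arrays together with the poor ones. Their kept directions and similar medians were thus favored in advance and are not a separate test. The test was passed far less often, by 85 genes upward (0.967%) and 29 downward (0.33%), of which 73 and 24 were among those called over all arrays. In that fit the run of 4 2D holds day 10 arrays only, so the difference rests on batch 1 and on 4 2A against 10 2A. With the array batch as the block in place of the run and still without the poor arrays, 239 of the 298 and 159 of the 221 genes passed the test. Without 4 1B, 607 genes rose (6.9%) and 612 fell (6.96%). That array is singled out because it resembled the day 10 arrays of its batch, so leaving it out favored calls in advance. Results without it, here and below, are thus no separate support. Counts for lists without the poor arrays or without 4 1B are to be read against the shares of all genes given here.

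The changes of the 2 batches, which share no array, correlated across the 8793 genes with a Pearson r of 0.53 and a Spearman rho of 0.47. This describes the genes, which are not independent replicates. Of 118 genes that rose in batch 2 tested alone, 100 were also higher at day 10 in batch 1, where their median change was 1.05 against 2.44 in batch 2. Of 62 genes that fell in batch 2 alone, 59 were also lower in batch 1, with median changes of -1.24 and -2.22. Batch 1 alone, with 2 arrays of each day, gave 0 calls by limma, with 1719 probe sets at an unadjusted p under 0.05. A limma test of whether the change differed between the batches gave 0 calls, with 1052 probe sets at an unadjusted p under 0.05 and a lowest adjusted p of 0.28. The counts of called probe sets moved with single arrays. They were 208 without 4 1A, 1815 without 4 1B, 41 without either 4 2A or 10 2A, 875 without either 4 2B or 4 2C, 115 without 4 2D, 175 without 10 1A, 231 without 10 1B, 79 without 10 2B and 185 without 10 2C, against 760 over all arrays. Leaving out 4 2A or 10 2A takes their run out of the difference. All 760 kept their direction in each of these fits, which share all but 1 array with the fit that called them. Of the 111 called genes named here, 16 stayed called in all 11 fits and the median was 4 of 11, but the change of only 1, igfbp1a, moved by more than 1.5 times.

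**Figure D1:**
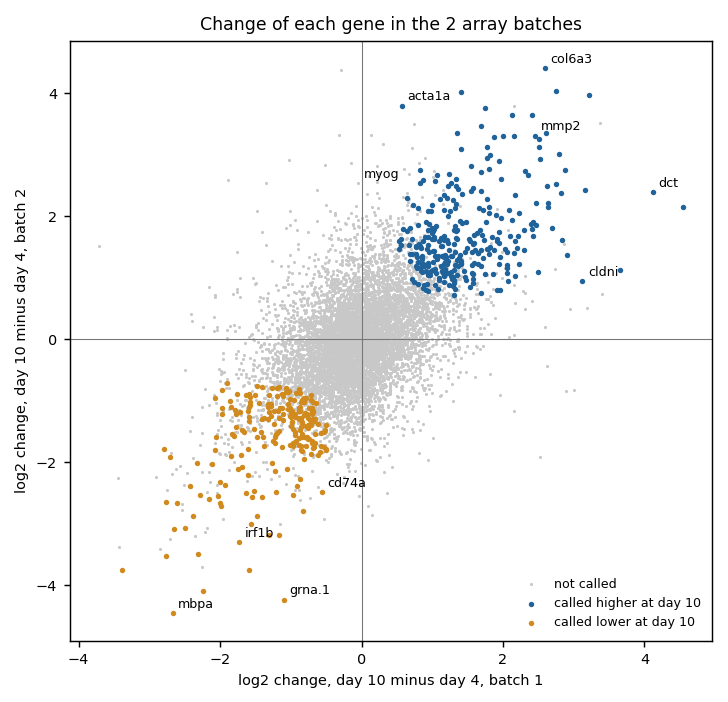
Log2 change of each of 8793 genes between day 4 and day 10 in batch 1 (horizontal) and in batch 2 (vertical), with the 298 genes called higher in blue, the 221 called lower in orange and the others in grey. Every called gene changed in the same direction in both batches, as did 5805 of all 8793 genes (66.02%). The calls were made over both batches together, which favors genes with 1 direction. col6a3, at 2.59 and 4.41, lies at the upper right.

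Of the lists examined, that of matrix proteins other than collagens held the largest share of genes that rose. Of its 49 genes, which include matrix enzymes, 13 rose (26.5%, against 3.39% of all genes), 0 fell, and the median change was 0.82. mmp2, the gelatinase that cuts denatured collagen and basement membrane, read 452 to 1186 (median 951) at day 4 and 5678, 6183, 10334, 6501 and 4368 at day 10. The lowest day 10 array was thus far above the highest day 4 array, and the gene rose by 2.92 ± 0.36 (adjusted p = 0.0054). fn1b, a fibronectin of the matrix to which cells attach, read 878 to 4276 (median 2836) at day 4 and 13310.5, 9940.0, 9217, 13834 and 10572 at day 10, a rise of 2.33 ± 0.30 (adjusted p = 0.0058) with no overlap. Both genes stayed called with any 1 of the 11 arrays left out.

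timp2a, an inhibitor of matrix metalloproteinases, read 988 to 2338 (median 1929) and 3982, 3796, 4447, 6062 and 6512, with every array of day 10 above those of day 4 (1.43 ± 0.25, adjusted p = 0.017). thbs4b, a thrombospondin found at muscle attachment sites, read 117 to 349 (median 262) and 1778, 606, 2555, 2184 and 5068 and rose by 2.83 ± 0.49 (adjusted p = 0.018), least on 10 1B. pcolcea, an enhancer of the enzyme that trims fibrillar procollagen, read 158 to 1421 (median 338) and 2642, 2691, 2508, 3574 and 5083, a rise of 2.53 ± 0.49 (adjusted p = 0.023). Of its day 4 arrays 4 1B was highest, at 1421, and still below every array of day 10. Without the poor arrays, when 0.967% of all genes rose, 2 of the 49 genes passed the test, and the median change was 0.83. Without 4 1B, when 6.9% of all genes rose, 23 of the 49 rose. The median change was 0.27 in batch 1 and 1.25 in batch 2, with 29 and 42 members higher at day 10.

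Among 21 collagens 4 rose (19%, against 3.39% of all genes) and 0 fell, while the median change was only 0.14, and -0.27 with the authors' scaling alone. col6a3, a chain of the beaded-filament collagen VI that surrounds muscle fibers, read 188 to 645 (median 414) at day 4 and 2172, 3205, 5363, 5319 and 4997 at day 10. It rose by 3.57 ± 0.35 (adjusted p = 0.0013), which is an 11.9-fold change on the offset scale, and stayed called in 26 of 27 alternatives, the exception being batch 1 alone. col1a2, a chain of the fibrillar collagen I, read 1621 to 6029 (median 4458) and 13463, 11147, 16651, 19477 and 19248, without overlap (2.02 ± 0.32, adjusted p = 0.013). Its partner chain col1a1a read 4697 to 14558 (median 9531) and 18569, 13834, 18659, 20174 and 18111, where 10 1B lay among the day 4 arrays, and rose by 1.21 ± 0.24 (adjusted p = 0.026). The fourth was col18a1a, a basement membrane collagen, with 69.8 to 1548 at day 4 and 977 to 2644 at day 10 (1.95 ± 0.48, adjusted p = 0.045). When the poor arrays were left out, 1 of the 4 passed the test.

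**Figure D2:**
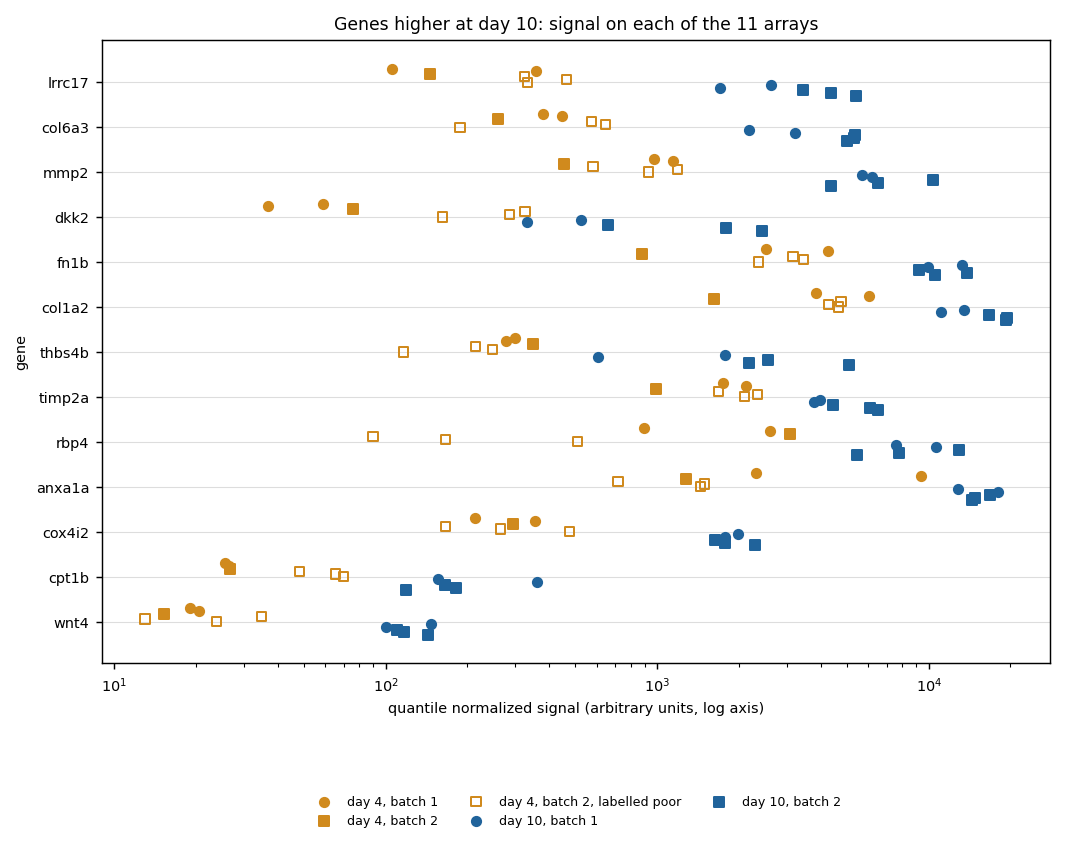
Quantile normalized signal (log axis) of 13 genes that rose, on each of the 11 arrays, with day 4 in orange, day 10 in blue, circles for batch 1, squares for batch 2 and open squares for arrays labelled poor. For each gene the lowest blue symbol lies to the right of the highest orange one, as for col6a3 with at most 645 at day 4 and at least 2172 at day 10.

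In the wider list of fibroblast and connective tissue genes, which shares members with the matrix lists, 4 of 29 rose (13.8%, against 3.39% of all genes) and 0 fell. postnb, a periostin of connective tissue, read 1843 to 5319 (median 3939) and 6862, 6720.4, 7771, 10572 and 8563, again without overlap (1.32 ± 0.27, adjusted p = 0.028), and the others were col1a1a, col1a2 and fn1b. The median change of the list was 0.50, with -0.12 in batch 1 and 0.98 in batch 2. Of the 4 defining fibroblast markers 3 rose, and their summed signal, given above, did not overlap between the days. The part of fibroblasts in the changes of the matrix genes was not tested. Outside these lists, lrrc17, a secreted leucine-rich repeat protein, had the largest rise of any called gene. It read 106 to 463 (median 329) at day 4 and 2635, 1701, 3436, 4363 and 5382 at day 10 (3.62 ± 0.34, adjusted p = 0.0012). sulf2b, an extracellular sulfatase that edits heparan sulfate, read 91.8 to 1142 (median 289.7) and 2862, 2686, 1817, 3353 and 3228 (2.91 ± 0.56, adjusted p = 0.023), and pdgfrl, a protein resembling the receptor for platelet-derived growth factor, 75.6 to 678 (median 347) and 888, 1325, 2931, 2806 and 2942 (2.91 ± 0.43, adjusted p = 0.0094). None of the 3 genes overlapped between the days.

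Of the contractile genes 6 passed the test, and 4 of them, given first, were lower on 5 of the 6 day 4 arrays than on any day 10 array and within the range of day 10 on 4 1B. acta1a, skeletal α-actin, read 1382, 3879, 193, 429.7, 218 and 406 on 4 1A, 4 1B, 4 2A, 4 2B, 4 2C and 4 2D. At day 10 it read 4008, 3005, 3988, 4235 and 5939, so that 4 1B lay within the range of day 10 and no other array of day 4 did. It rose by 2.31 ± 0.59 (adjusted p = 0.049), with a change of 0.57 in batch 1 and 3.80 in batch 2, and stayed called in 9 of 27 alternatives. Without 4 1B its change was 2.89 and called, but leaving out any other 1 array ended the call. myh7, a slow and cardiac myosin heavy chain, read 563, 5182, 231, 819, 330.4 and 664 at day 4 and 3963, 5052, 3618, 5489.7 and 5703 at day 10. The value on 4 1B was again among those of day 10 (2.43 ± 0.61, adjusted p = 0.048). tnni2b.1, a fast troponin I, read 55.5 to 1308 (median 129) and 996, 1603, 2766, 1656 and 2439 (2.81 ± 0.64, adjusted p = 0.036), and smyhc1, a slow myosin heavy chain, 14.9 to 512 (median 32.8) and 482, 628, 345, 418 and 399.8 (2.23 ± 0.51, adjusted p = 0.038). In both genes the highest value of day 4 was that of 4 1B.

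Of 48 sarcomere genes 6 rose (12.5%, against 3.39% of all genes) and 0 fell, the remaining called ones being xirp1, an actin-binding protein of growing muscle (1.74 ± 0.44, adjusted p = 0.048), and trim63a, a ubiquitin ligase of muscle wasting that is counted among them because it binds titin (2.26 ± 0.50, adjusted p = 0.034). The median change of the list was 0.93, with 0.16 in batch 1, 1.75 in batch 2 and 0.44 without the poor arrays, when 0 of the 48 passed the test. Of all genes 0.967% rose without the poor arrays and 6.9% without 4 1B. In the fit without 4 1B 23 of the 48 rose, and the median change was 1.3. The median over the list on each array, relative to the mean of each gene, was 0.62 on 4 1B against -0.85 to -0.51 on the other day 4 arrays, 0.05 and 0.11 on the day 10 arrays of batch 1 and 0.68 to 1.06 on those of batch 2. In batch 1 the DsRed probe set, like this median, was lower on 4 1A than on 4 1B, 10 1A and 10 1B. The sizes differed, since DsRed read 18.3 on 4 1A and 9310 to 12520 on the others. On 4 1A acta1a, as given above, was still higher than on any day 4 array of batch 2. In batch 2 DsRed read 9.5, 4.3 and 30.1 on the day 10 arrays, on which acta1a was 3988 to 5939.

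desma, desmin, the intermediate filament protein of muscle, read 625, 3676, 334, 95, 148 and 298 at day 4 and 2583, 3185, 2177, 2431 and 3854 at day 10, a difference that did not pass the test (2.00 ± 0.53, adjusted p = 0.055). ckma, muscle creatine kinase, read 95.4 to 2809.9 (median 467) and 2151, 2909, 3027, 3499.8 and 3939 and also did not pass it (1.92 ± 0.54, adjusted p = 0.066). cav3, the caveolin of the muscle membrane, read 41 to 666 (median 88.5) and 382, 405, 358, 158 and 159 (0.85 ± 0.38, adjusted p = 0.2), and its highest value was on 4 1B. Of the day 4 arrays, 4 1B had the highest mean correlation with day 10, at 0.922. Without 4 1B all 3 genes were called, with changes of 2.66, 2.48 and 1.31. Leaving out that array favored these calls in advance. Of 13 genes for membrane and filament proteins 0 were called in either direction, near the 3.39% and 2.51% of all genes. Without 4 1B 2 of the 13 were higher, against 6.9% of all genes.

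**Figure D3:**
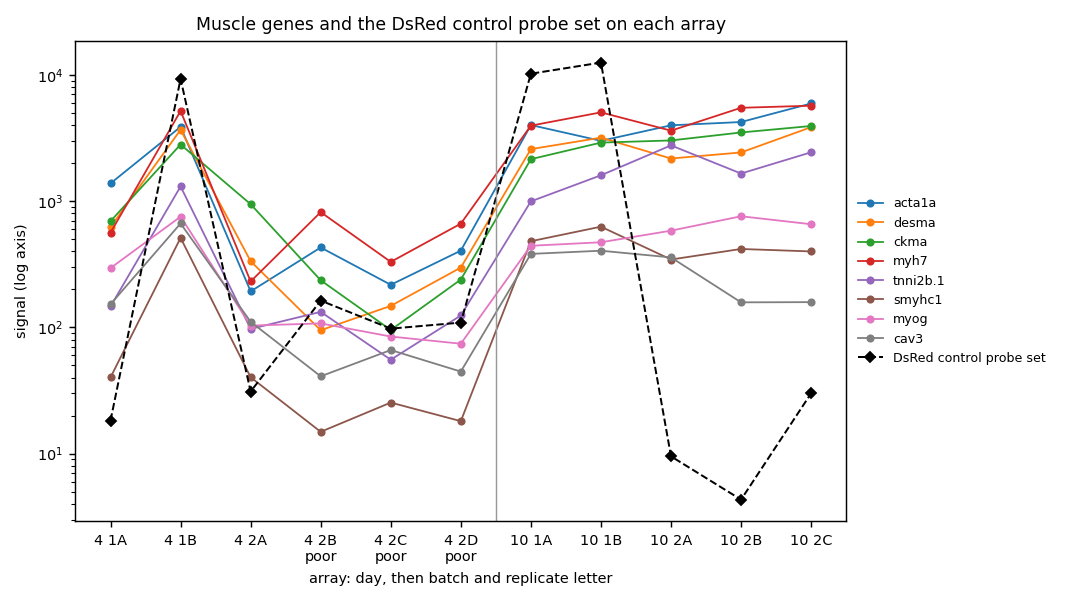
Signal (log axis) of 8 muscle genes, quantile normalized, and of the DsRed control probe set, as deposited, on each of the 11 arrays, ordered by day, batch and letter, with the line between the days in grey. Each muscle gene on 4 1B lies at or above the lowest array of day 10 (acta1a 3879), while DsRed is high on 4 1B, 10 1A and 10 1B alone.

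None of 24 myogenic transcription factors was called in either direction, and their median change was -0.01. Of all genes only 3.39% rose and 2.51% fell, so 0 calls in so short a list is near these shares. myog, myogenin, which drives terminal differentiation, read 295, 754, 103, 108, 84.7 and 74.3 at day 4 and 443, 472, 584, 759 and 657 at day 10. Only 4 1B reached the level of day 10, and the change was 1.34 ± 0.48 (adjusted p = 0.12), with -0.05 in batch 1 and 2.53 in batch 2. It passed the test without 4 1B, at 1.82, a call that leaving out this array favored in advance. myf5, the early determination factor, read 74 to 326 (median 106) and 129, 102, 342, 273 and 408 (0.91 ± 0.27, adjusted p = 0.079), and myod1 27.3 to 122 (median 63.3) and 63.2, 94.3, 92.6, 111 and 156 (0.17 ± 0.22, adjusted p = 0.7). The factors of muscle progenitors pax3a (0.29 ± 0.25, adjusted p = 0.53) and pax7a (0.00 ± 0.25, adjusted p = 0.99) were dim, with at most 51.2 and 158 on any array. ncam1a, a neural cell adhesion molecule also found on myoblasts, changed by -0.31 ± 0.41 (adjusted p = 0.69), and the chemokine receptor cxcr4a by -0.61 ± 0.52 (adjusted p = 0.52). None of these differences passed the test.

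In the list of excitation-contraction coupling, calcium buffers and the neuromuscular junction, 2 of 25 genes rose and 2 fell. This was 8% each way, against 3.39% and 2.51% of all genes. musk, the receptor kinase that organizes the postsynaptic membrane, read 1939 to 3134 (median 2538) and 5992, 7361, 5382, 5015 and 5897, without overlap (1.14 ± 0.22, adjusted p = 0.021). cacng1a, a subunit of the muscle calcium channel, read 34.8 to 307 (median 46.2) and 245, 402, 322, 367 and 347 (1.80 ± 0.45, adjusted p = 0.047), with the highest day 4 value, that of 4 1B, within the range of day 10. pvalb1, a parvalbumin that buffers calcium, went the other way, reading 18.7 to 425 (median 275) at day 4 and 34, 62.9, 23.9, 18.7 and 38.4 at day 10, and fell by 2.42 ± 0.34 (adjusted p = 0.0084), although the lowest day 4 array lay among those of day 10. atp2a2b, a calcium pump of the sarcoplasmic reticulum, read 1570.1 to 2436 (median 2133) and 1096, 815, 1126, 886 and 826 and fell by 0.95 ± 0.20 (adjusted p = 0.031) with no overlap.

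Of 22 genes for myoblast fusion and adhesion 4 rose (18.2%, against 3.39% of all genes) and 1 fell (4.55%, a share near the 2.51% of all genes). anxa1a, an annexin of membrane repair and fusion, read 718 to 9358 (median 1471) and 12802, 17999, 16772, 14855 and 14449, with 4 1B closest to day 10 (2.65 ± 0.47, adjusted p = 0.018). jam3b, a junctional adhesion molecule that zebrafish myoblasts need for fusion, read 704 to 1562 (median 1272) and 1599.6, 2783, 2770.2, 3536 and 3712 (1.27 ± 0.25, adjusted p = 0.023). elmo1, a partner of the Rac activator Dock1, read 982 to 2216 (median 1597) and 2550.0, 2637, 3956, 3943 and 3493 (1.04 ± 0.20, adjusted p = 0.025). All 3 separated the days completely. boc, a cell surface receptor of the hedgehog pathway and of myoblasts, rose by 1.57 ± 0.39 (adjusted p = 0.044) with overlap, whereas cd9b, a tetraspanin, fell by 1.58 ± 0.35 (adjusted p = 0.035) with wide overlap between 586 to 3546 at day 4 and 592 to 2594 at day 10. Without the poor arrays, when 0.967% of all genes rose and 0.33% fell, 0 of the 22 passed the test.

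A share of the genes of DNA replication and mitosis fell, and none of them rose. Of 67 S phase genes 16 fell (23.9%, against 2.51% of all genes) and 0 rose, and 61 of the 67 changes were negative, with a median of -0.88. The median over the list was 0.07 to 0.63 on the day 4 arrays and -0.63 to -0.08 on the day 10 arrays, so the days did not overlap and 4 1B, at 0.36, was on the side of day 4. mcm3, a subunit of the replication helicase, read 452 to 1308 (median 752) at day 4 and 229, 133, 343, 380.0 and 428 at day 10, without overlap, and fell by 1.24 ± 0.26 (adjusted p = 0.03). mcmbp, which binds the helicase, read 395 to 973 (median 674) and 205, 315, 222, 222 and 279 (-1.33 ± 0.27, adjusted p = 0.026). nasp, a histone chaperone, read 456 to 1514 (median 885) and 315, 269.8, 304, 259 and 324 (-1.49 ± 0.31, adjusted p = 0.029), again with every day 10 array below day 4. slbp, which binds the ends of replication-dependent histone transcripts, read 413 to 882 (median 775) and 107, 145, 424, 240.2 and 288 and fell by 1.57 ± 0.29 (adjusted p = 0.02). Its lowest day 4 value, 413 on 4 1B, was just below the highest of day 10. orc4, of the origin recognition complex, fell by 1.17 ± 0.24 (adjusted p = 0.028). Among the 8 good arrays alone, 2 of the 67 passed the test and the median change was -0.85. Without 4 1B 24 fell and 1 rose. Of all genes 0.33% fell without the poor arrays and 6.96% without 4 1B. The median change was -1.02 in batch 1 and -0.52 in batch 2.

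Of 72 M phase genes 7 fell (9.72%, against 2.51% of all genes) and 0 rose, with a median change of -0.77. kif11, the kinesin that separates the spindle poles, read 438 to 1363 (median 658) and 356, 216, 267, 267 and 268, without overlap (-1.59 ± 0.29, adjusted p = 0.02). mad2l1, of the spindle checkpoint, read 536 to 2521 (median 997) and 571, 424, 252, 351 and 531 (-1.47 ± 0.29, adjusted p = 0.024). knl1, a scaffold of the kinetochore, read 359 to 1223 (median 503) and 203, 192, 216, 239 and 260.5 (-1.29 ± 0.31, adjusted p = 0.043). The highest value of each of these 3 genes was on 4 1A, where the median over the list was 1.17, against -0.18 to 0.38 on the other day 4 arrays and -0.49 to -0.25 at day 10. tacc3 (-1.44 ± 0.35, adjusted p = 0.044) and kif20a (-1.45 ± 0.35, adjusted p = 0.042), of the spindle and of cytokinesis, fell as well, both with overlap between the days. Without the poor arrays, when 0.33% of all genes fell, 0 of the 72 passed the test, at a median of -0.82. Without 4 1B, when 6.96% of all genes fell, 21 of the 72 fell. Among 22 cell cycle inhibitors and p53 targets 1 rose and 1 fell. Each is 4.55%, a share near the 3.39% and 2.51% of all genes. sesn3, a sestrin that restrains mTOR signaling, read 421 to 941 (median 622) and 1239, 1128, 2467, 2357 and 2747 and rose (1.61 ± 0.23, adjusted p = 0.0086). cdkn1ca, an inhibitor of cyclin-dependent kinases, fell by 1.63 ± 0.39 (adjusted p = 0.041).

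**Figure D4:**
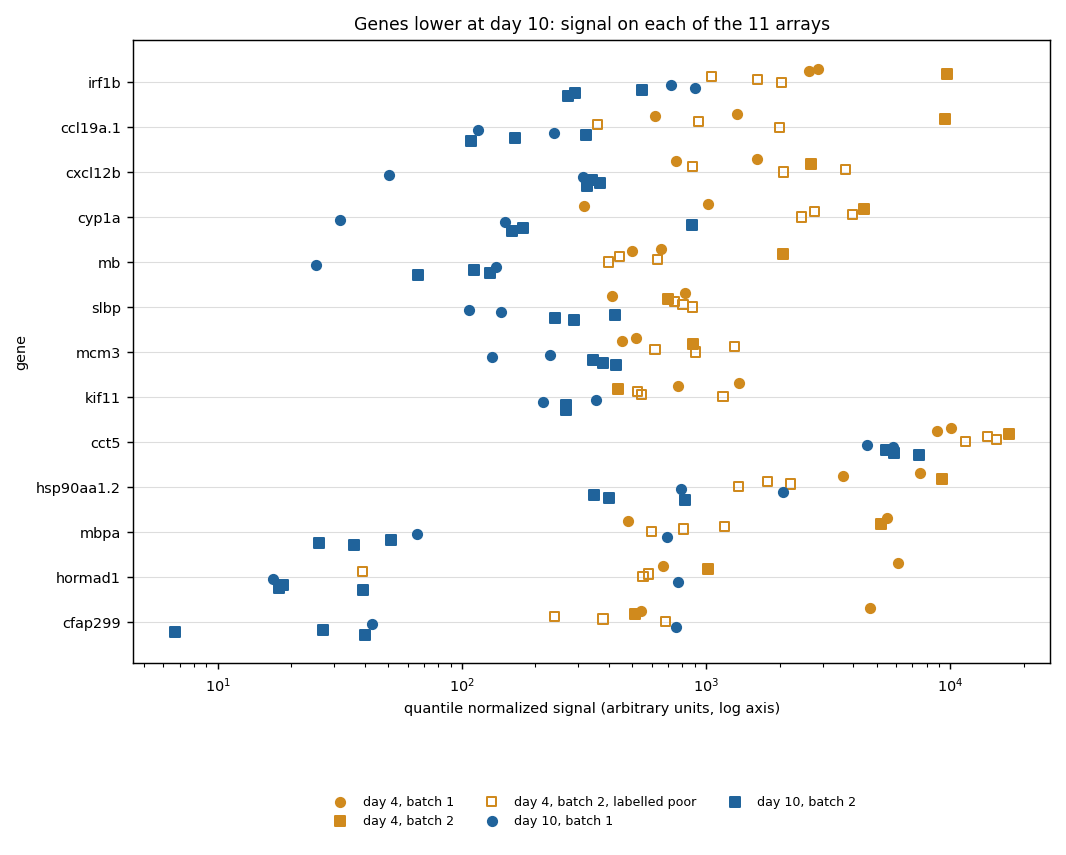
Quantile normalized signal (log axis) of 13 genes that fell, on each of the 11 arrays, with symbols as for the genes that rose (orange for day 4, blue for day 10, circles for batch 1, squares for batch 2, open for arrays labelled poor). irf1b, mcm3, kif11 and cct5 separate the days completely, whereas for mbpa, hormad1 and cfap299 the blue circle of 10 1B lies among the day 4 arrays.

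Some genes that fold proteins fell, and a pair of ubiquitin ligases that mark muscle proteins for breakdown rose. Of 57 heat shock proteins and chaperones 6 fell (10.5%, against 2.51% of all genes) and 0 rose. Subunits of the chaperonin that folds actin and tubulin were among them: cct5 read 8794 to 17363 (median 12875) and 4545, 5827, 5468, 5897 and 7429 (-1.03 ± 0.23, adjusted p = 0.034), and tcp1 4016 to 6877 (median 4841) and 2865, 2598, 2224, 2259.8 and 2295 (-1.01 ± 0.20, adjusted p = 0.026). Both separated the days, while cct2 (-0.95 ± 0.22, adjusted p = 0.041) overlapped. hsp90aa1.2, an Hsp90, read 1363 to 9253 (median 2936) and 790.1, 2072, 349, 402 and 820.4 and fell by 2.36 ± 0.52 (adjusted p = 0.033), with its highest value of day 10 on 10 1B. hspa4a, an Hsp70 co-chaperone, read 1616 to 4612 (median 2787) and 1042, 1083, 875, 883 and 859 (-1.46 ± 0.31, adjusted p = 0.03). The median over the list was 0.07 to 0.37 at day 4 and -0.35 to -0.16 at day 10, and 4 1B was on the side of day 4. When the poor arrays were left out, 0 of the 57 passed the test, and 0.33% of all genes fell. Without 4 1B 16 fell and 3 rose, against 6.96% and 6.9% of all genes.

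Of 54 translation factors 3 fell (5.56%, a share near the 2.51% of all genes) and 0 rose. These were eif2b2 (2274 to 3702 at day 4 and 1637, 1469.6, 1189, 1282 and 1460.2 at day 10, -1.13 ± 0.23, adjusted p = 0.028), a subunit of the exchange factor for eIF2, eif2s2, a subunit of eIF2 itself (-0.95 ± 0.22, adjusted p = 0.038), and eif6, which acts on the large ribosomal subunit (-1.22 ± 0.30, adjusted p = 0.045). The median over the list was 0.05 to 0.24 at day 4 and -0.25 to -0.11 at day 10. All 48 proteasome genes had a lower fitted value at day 10, with a median change of -0.50, but 0 passed the test. Of 59 mitochondrial ribosomal proteins 1 fell, mrpl12 (2216 to 3622 and 2119, 1682, 1159, 1202 and 1148, -0.86 ± 0.21, adjusted p = 0.044), and of 69 cytosolic ribosomal proteins 0 were called, at a median of -0.09. Among 39 genes of the lysosome, autophagy and muscle atrophy 3 rose (7.69%, against 3.39% of all genes) and 0 fell. fbxo32, atrogin-1, the other ubiquitin ligase of muscle wasting beside trim63a, read 74.2 to 425 (median 164) and 417, 488, 1059.5, 872 and 842 (1.67 ± 0.31, adjusted p = 0.021). trim63a read 32.1 to 414 (median 78.6) and 584, 998, 429.6, 491 and 642, with 4 1B nearest to day 10, and map1lc3a, an autophagosome protein, rose by 1.25 ± 0.30 (adjusted p = 0.041).

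In metabolism, a share of the genes of fatty acid oxidation rose. Of 36 genes of fatty acid oxidation 7 rose (19.4%, against 3.39% of all genes) and 0 fell, and the fitted change was above 0 for 33, the median being 0.55 (0.94 in batch 1 and 0.37 in batch 2). cpt1b, the carnitine transferase that admits long fatty acids to muscle mitochondria, read 25.7 to 69.8 (median 37.6) and 156, 362, 166, 182 and 119, without overlap (1.68 ± 0.32, adjusted p = 0.021). eci1, an enoyl-CoA isomerase, read 493 to 1123 (median 763) and 1610.0, 1521, 3245, 1983 and 1998 (1.37 ± 0.29, adjusted p = 0.029), and slc27a1a, a fatty acid transporter, 133 to 581 (median 370.1) and 857, 918, 674, 870.3 and 864 (1.38 ± 0.30, adjusted p = 0.031). Every day 10 array was above day 4 for both. decr2, a dienoyl-CoA reductase (1.1 ± 0.25, adjusted p = 0.036), and echs1, an enoyl-CoA hydratase (0.85 ± 0.20, adjusted p = 0.039), changed less and also without overlap. Without the poor arrays, when 0.967% of all genes rose, 4 of the 36 passed the test, at a median of 0.91. Without 4 1B, when 6.9% of all genes rose, 7 did.

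Of 84 genes of oxidative phosphorylation 1 rose and 0 fell, and the median change was -0.11, or 0.02 with the scaling of the authors alone. The exception was cox4i2, an alternative subunit of cytochrome c oxidase, with 166 to 477 (median 280.3) at day 4 and 1989.8, 1776, 1629.9, 1782 and 2299 at day 10 (2.38 ± 0.25, adjusted p = 0.0018), which stayed called with any 1 array left out. Of 33 genes of the tricarboxylic acid cycle 0 were called. Of 45 genes of glycolysis and related reactions 1 fell, hk2, a hexokinase, with 862 to 2946 (median 1135) and 447, 430.5, 573, 505 and 349 (-1.39 ± 0.29, adjusted p = 0.029). Among 81 oxidoreductases and detoxifying enzymes 10 rose (12.3%, against 3.39% of all genes) and 3 fell (3.7%, a share near the 2.51% of all genes). selenop, which carries selenium, read 28.5 to 1227 (median 392) and 4247, 5703, 5052, 1805 and 1531 (2.58 ± 0.43, adjusted p = 0.016). gpx8, a glutathione peroxidase of the endoplasmic reticulum (1.56 ± 0.25, adjusted p = 0.013), and aldh9a1a.1, an aldehyde dehydrogenase (1.87 ± 0.30, adjusted p = 0.014), rose without overlap. cyp1a, the cytochrome P450 induced through the aryl hydrocarbon receptor, read 317 to 4454 (median 2624) and 31.6, 150.0, 874, 178 and 161 and fell (-2.80 ± 0.41, adjusted p = 0.0097), with 10 2A above 4 1B. mb, myoglobin, which stores oxygen in muscle, read 397 to 2070.1 (median 565) and 25.2, 138, 112, 130.5 and 65.9 and fell by 2.64 ± 0.40 (adjusted p = 0.011). slc43a2a, a transporter of neutral amino acids, read 34.9 to 974 (median 184) and 2474, 2001, 1659, 1873 and 1420.0 and rose (2.95 ± 0.50, adjusted p = 0.016).

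Among 54 genes of Wnt and fibroblast growth factor signaling 3 rose (5.56%), a share near the 3.39% of all genes. dkk2, of the Dickkopf family that binds the Wnt co-receptor, read 36.8 to 326 (median 119) and 523, 331, 658, 1788 and 2433 (2.84 ± 0.26, adjusted p = 0.0012). The lowest array of day 10, 10 1B, was just above the highest of day 4, 4 2B, and within each batch the days did not overlap. wnt4, a ligand, read 13 to 34.9 (median 19.8) and 147, 101, 110.2, 117 and 144 (1.56 ± 0.22, adjusted p = 0.0083), and sfrp1a, a secreted frizzled-related protein, 21.4 to 78.6 (median 39.5) and 80.2, 93.2, 348, 414 and 396 (1.53 ± 0.34, adjusted p = 0.034), the latter higher in batch 2 than in batch 1. No other member of the list was called, and 2 of the 54 passed the test without the poor arrays. The median change of the list was 0.07, and -0.38 with the authors' scaling alone.

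rbp4, the carrier of retinol, read 89.8 to 3089 (median 703) and 7577, 10656, 12986, 7771 and 5468, without overlap (2.75 ± 0.37, adjusted p = 0.0079). raraa, a retinoic acid receptor, read 70.9 to 253 (median 126) and 367, 343, 381, 394 and 526 (1.3 ± 0.27, adjusted p = 0.029), and these were the 2 called genes of 21 in the retinoid list, with and without the poor arrays. Of 22 genes for insulin-like growth factors and their binding proteins 2 rose (9.09%, against 3.39% of all genes) and 1 fell (4.55%, against 2.51%). The fitted change was positive for 16 of the 22, with a median of 0.19, and the 2 that rose are not described further. Against this, igfbp1a, a binding protein for insulin-like growth factors, read 2669 to 7279.8 (median 4846) and 4571, 2330.5, 1134, 1033 and 665 and fell by 1.43 ± 0.36 (adjusted p = 0.048), with -0.95 and no call without 4 2D. Of 39 genes of the TGF-beta pathway 1 was called, the follistatin-like fstl1b (271 to 1723 and 3198, 3508, 2199, 3615 and 3269.9, 1.93 ± 0.44, adjusted p = 0.036), and of 29 Notch pathway genes 1, adam10a, a protease that sheds Notch (54.6 to 395 and 739, 892, 996, 706 and 466, 1.45 ± 0.32, adjusted p = 0.032). Both rose. The medians of these lists were -0.12 and 0.04.

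Genes of inflammation changed in both directions, 6 of 41 upward (14.6%, against 3.39% of all genes) and 5 downward (12.2%, against 2.51%). The fall was led by ccl19a.1, a chemokine, with 359 to 9548 (median 1136) at day 4, highest on 4 2A, and 117, 238, 324, 166 and 109 at day 10 (-3.24 ± 0.46, adjusted p = 0.0084). cxcl12b, a ligand of the Cxcr4 receptors, read 755 to 3727 (median 1846) and 50.2, 312, 342, 369 and 324 (-2.70 ± 0.49, adjusted p = 0.02), and irf1b, a transcription factor of the interferon response, 1055 to 9678 (median 2331) and 721, 903, 549, 290.2 and 272 (-2.57 ± 0.35, adjusted p = 0.008). All 3 separated the days. The related ligand gene cxcl12a, not counted among the named genes, went the other way. It was called higher, with changes of 1.42 in batch 1 and 2.37 in batch 2. ifi44d, named for its induction by interferon, read 317 to 3731 (median 667) and 122, 306, 258, 261 and 152 and fell without overlap (-2.75 ± 0.44, adjusted p = 0.013). The rise was led by c6.2, a gene of complement component C6, with 123 to 1059.5 (median 192) and 1992, 5372, 3476, 3275 and 3995 (3.44 ± 0.48, adjusted p = 0.0084), and by ccl25b, a chemokine, with 56.2 to 348 (median 105) and 333, 564, 1562, 1586 and 1088 (2.50 ± 0.38, adjusted p = 0.011). Array 4 1B was the highest of day 4 for c6.2, and for ccl25b array 4 2A overlapped with 10 1A.

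Of 34 leukocyte genes 4 fell (11.8%, against 2.51% of all genes) and 0 rose, and the batches differed in level. The median over the list was 0.30 and 0.50 on the day 10 arrays of batch 1 and -1.19 to -0.60 on those of batch 2, against -0.29 to 1.07 at day 4, and the median change was 0.04 in batch 1 and -1.39 in batch 2. grna.1, a granulin, read 7551 to 18865 (median 12103) at day 4 and 3943, 6679, 1380.0, 376 and 772 at day 10 (-2.78 ± 0.56, adjusted p = 0.027), with changes of -1.09 and -4.23 in the batches. cd74a, the invariant chain of antigen presentation, read 1621 to 5713 (median 3563) and 4058, 2884, 746, 422 and 684 (-1.59 ± 0.39, adjusted p = 0.044), and on 10 1A and 10 1B it lay among the day 4 arrays. lgals9l1, a galectin (-2.03 ± 0.36, adjusted p = 0.018), and ikzf1, a lymphoid transcription factor (-1.20 ± 0.29, adjusted p = 0.041), were the others. The defining markers measured were ptprc, lcp1, coro1a, mpx and lyz. Their summed signal was 6748 to 25541 at day 4 and 1273 to 12110 at day 10, and 0 of the 5 passed the test. The lowest signal of any of these markers was 28.8. The presence of leukocytes on each array was not tested. Among the 8 good arrays alone, 1 of the 41 inflammation genes rose and 2 fell, and without 4 1B 6 rose and 12 fell. The part of leukocytes in the changes of the inflammation genes was not tested.

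Some of the largest falls were of genes of germ cells and of the axoneme, the core of cilia and flagella, and they followed single arrays. hormad1, of the meiotic chromosome axis, read 6128, 667, 1016, 39.3, 579.7 and 552 at day 4 and 16.9, 768, 18.5, 17.9 and 39.5 at day 10 (-3.59 ± 0.90, adjusted p = 0.047). It was highest on 4 1A, and 10 1B was above 4 of the 6 arrays of day 4, all but 4 1A and 4 2A. cfap299, named for cilia and flagella, read 4697, 543, 514, 239.8, 379 and 681 and 42.9, 757, 26.9, 6.7 and 40 (-3.17 ± 0.72, adjusted p = 0.036). gtsf1 (50 to 2820.0 and 23.4, 312, 40, 15.5 and 15.4, -2.88 ± 0.71, adjusted p = 0.044) and tdrd7a (20.8 to 2615 and 95, 389, 45.7, 44.2 and 55.5, -2.94 ± 0.71, adjusted p = 0.044), both of the small RNA machinery and granules of the germ line, and daw1, an assembly factor of ciliary dynein (162 to 3536 and 66.2, 470.2, 51.3, 61.1 and 56.9, -2.65 ± 0.65, adjusted p = 0.044), were likewise highest on 4 1A and, of the day 10 arrays, on 10 1B. In a list of 52 such genes, 10 fell (19.2%, against 2.51% of all genes), 0 rose and all 52 fitted changes were negative, with a median of -1.57. The list was chosen after these values were seen, so its counts describe the genes and are no support for the fall. For 1 of the 52 every day 10 array was below every day 4 array, as for 3.32% of all genes. The median over the list was 2.51 on 4 1A, 0.50 on 10 1B, -0.62 to 0.62 on the other day 4 arrays and -1.05 to -0.84 on the other day 10 arrays. Without the poor arrays 0 of the 52 passed the test, and without 4 1B 29 fell. Of all genes 0.33% and 6.96% fell in these fits.

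mbpa, myelin basic protein, had the largest fall of all called genes. It read 5534, 481, 5189.6, 1190.0, 811 and 598 at day 4 and 65.3, 694, 51.4, 26.1 and 36.3 at day 10, with 10 1B among the day 4 arrays (-3.63 ± 0.79, adjusted p = 0.032). Of 39 genes of nerve and glia 1 fell and 2 rose, namely pmp22a, another myelin protein that is also widely expressed (502 to 1194 and 1509, 2577, 4637, 3558 and 2621, 2.02 ± 0.38, adjusted p = 0.021), and glula, a glutamine synthetase (1.34 ± 0.34, adjusted p = 0.048). The share of the list that fell was 2.56%, near the 2.51% of all genes, and the share that rose 5.13%, against 3.39%. The summed signal of elavl3, mbpa and sox10 was 680 to 6299 at day 4 and 241 to 851 at day 10.

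Calls among markers of other cell types are to be read against the 3.39% of all genes that rose and the 2.51% that fell. Of 46 epithelial genes 4 rose (8.7%) and 1 fell (2.17%), with a median change of -0.07. Without the poor arrays, when 0.967% of all genes rose, 3 of the 46 rose. krt4, a keratin, read 172 to 1037 (median 578) and 4875, 6245, 4729, 2105 and 1548, without overlap (2.41 ± 0.37, adjusted p = 0.011), and krt94 (1.84 ± 0.37, adjusted p = 0.026), the claudin cldni (1.95 ± 0.46, adjusted p = 0.039) and icn, ictacalcin (1.26 ± 0.30, adjusted p = 0.039), overlapped between the days. The claudin cldnb fell by 1.93 ± 0.35 (adjusted p = 0.02). Of the defining epidermal markers krt4, krt5, epcam and cdh1, only krt4 was called. Of 16 pigment cell genes 1 rose, dct, an enzyme of melanin synthesis, with 105 to 950.2 (median 307) and 2835, 6128, 2421, 2751 and 1490.5 (3.19 ± 0.52, adjusted p = 0.015). Of 16 endothelial genes 1 fell, gata2a, a transcription factor of blood and vessels, with 75.6 to 372 (median 125) and 16.4, 28.9, 52.3, 16.3 and 33.4 (-1.46 ± 0.26, adjusted p = 0.018), of 19 erythrocyte genes 1, hbaa1, a hemoglobin chain, with 40 to 329 (median 174) and 67.5, 25.5, 60.6, 42.6 and 22.1 (-1.70 ± 0.32, adjusted p = 0.021), and of 27 genes of cartilage, bone and scale runx2a rose (2.08 ± 0.41, adjusted p = 0.024), while its other probe set changed by 0.03. Among 32 immediate early genes klf2b (379 to 1393 and 159, 221, 172, 169.8 and 97.4, -2.10 ± 0.35, adjusted p = 0.016) and nr4a2b (-1.33 ± 0.33, adjusted p = 0.045), both transcription factors, fell. The remaining members of the 12 largest rises were s100w, an S100 calcium-binding protein, with 23.5 to 1806 (median 104), highest on 4 1B, and 3934, 2887, 717, 1158 and 1583 (3.01 ± 0.61, adjusted p = 0.026), and the uncharacterized genes si:ch211-106h4.12 (3.26 ± 0.55, adjusted p = 0.016) and si:ch211-212k18.8 (3.07 ± 0.38, adjusted p = 0.0058).

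**Figure D5:**
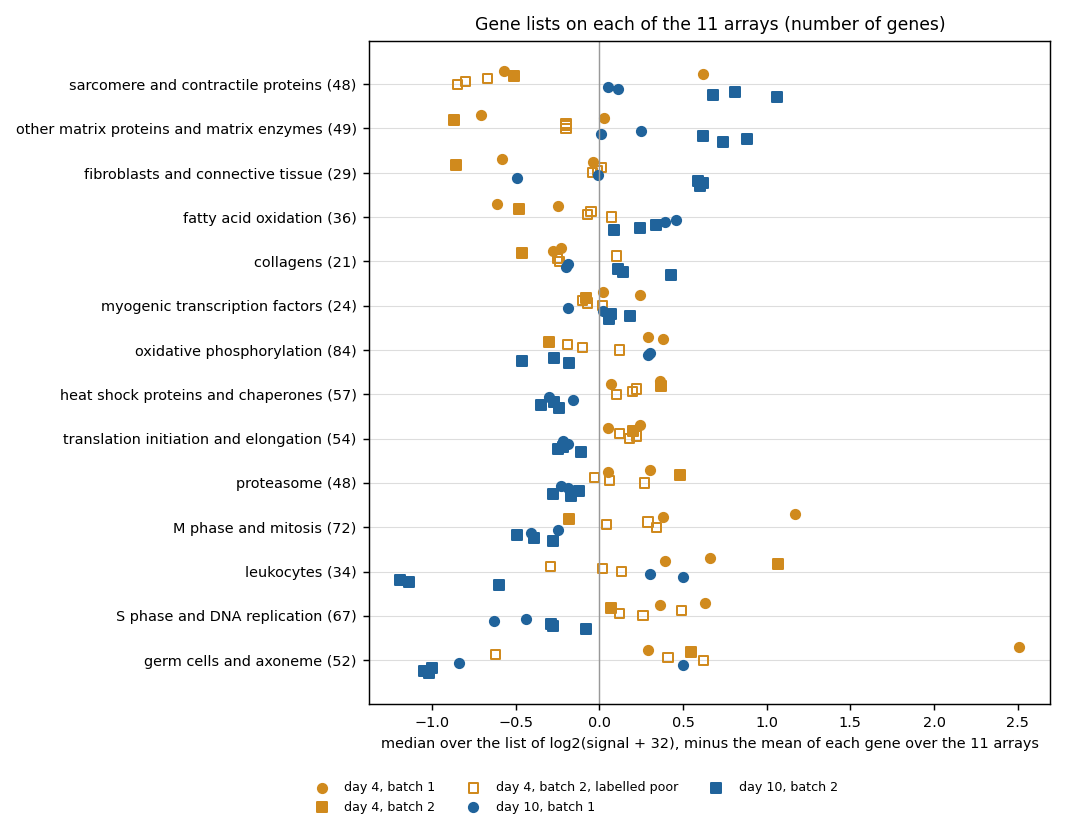
Median over each of 14 gene lists (number of genes in parentheses) of log2(signal + 32), each gene taken relative to its mean over the 11 arrays, with orange for day 4, blue for day 10, circles for batch 1, squares for batch 2 and open squares for arrays labelled poor. S phase, M phase, chaperone, translation, proteasome and fatty acid oxidation lists separate the days on all arrays. The separation is narrow for M phase (-0.18 against -0.25), proteasome (-0.03 against -0.12) and fatty acid oxidation (0.07 against 0.09). The sarcomere list has 4 1B at 0.62 among the day 10 arrays, and the germ cell and axoneme list has 4 1A at 2.51 and 10 1B at 0.50.

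Calls that did not depend on any single array were few. In all 11 fits with 1 array left out, 16 genes were higher and 4 lower at day 10. Named after their values were seen, the 16 include lrrc17, col6a3, mmp2, fn1b, dkk2, rbp4 and cox4i2 as described, erlin2, a protein of the endoplasmic reticulum membrane that acts in sterol regulation (184 to 596 and 1626, 3064, 1831, 3247 and 3035, 2.76 ± 0.28, adjusted p = 0.0017), rgma, a co-receptor for bone morphogenetic proteins (119 to 177 and 567, 824, 1202, 1374 and 1186, 2.46 ± 0.26, adjusted p = 0.0022, while its other probe set changed by -0.29), plxdc2b, a plexin-domain membrane protein (2.81 ± 0.35, adjusted p = 0.0058), and slc40a1, ferroportin, the iron exporter (1.84 ± 0.25, adjusted p = 0.0083). Of the 16, slc40a1 alone overlapped between the days, with 955.9 on 4 1B against 612.7, 703.8 and 493.8 on the day 10 arrays of batch 2. The 4 that fell were irf1b and 3 others. cad, the enzyme that starts pyrimidine synthesis, read 958 to 3011 (median 1784) and 361, 323, 355, 262 and 245 (-2.03 ± 0.26, adjusted p = 0.0058). nap1l1, a histone chaperone, read 2425 to 5579.5 (median 3126) and 1159, 1399, 957, 772 and 967 (-1.90 ± 0.25, adjusted p = 0.0058), and hmga1a, a chromatin protein, 6522 to 9358 (median 7132) and 2249, 1821, 3519, 2428 and 3287 (-1.43 ± 0.22, adjusted p = 0.012). On every array of day 10, including those of both batches, the 3 were below every array of day 4, including 4 1B.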

How the data were processed

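Signals of the Affymetrix Zebrafish Genome Array were deposited on a linear scale as the authors' MAS5 signal intensities, scaled to a target of 500 in batch 1 and 1500 in batch 2 per the labels. In the table each array's mean, leaving out 2% in either tail, was 500. For MAS5, the version is not stated in the labels or the paper. The deposited table also holds 115 control probe sets, which were left out of the tests and of which the DsRed one is described. The other 15502 probe sets were quantile normalized over the arrays compared, and log2(signal + 32) was tested by moderated linear models (limma 3.58.1, R 4.3.3, with day and hybridization run as terms, 6 residual degrees of freedom), with Benjamini-Hochberg adjustment over all probe sets. The scripts were tested on simulated data. The number of arrays limits the precision.

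Probe sets were named through the platform annotation, with symbols updated by RefSeq: 10795 had 1 symbol, 135 several and 4572 none. Each of the 8793 genes was represented by its probe set of highest mean log2 signal. Named genes were the 12 with the largest rise and the 12 with the largest fall among the called genes with 1 sign in both batches and without the poor arrays, and muscle genes that the study names. From the lists, genes called among the 5 of lowest p of each list were named, though not all of them. Members and lists were chosen with earlier results of these data known. The alternatives changed the block, the arrays, the normalization, the offset and a filter on dim probe sets (mean signal under 100).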

Additional observations from a re-analysis of the deposited data

Results flagged for a closer look

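Among the 121 genes named above, an array lay far from the others of its day on the log2 scale in 24 of 242 sets of values, by a rule whose nominal chance rate is about 1 in 20. 4 1B stood above the other day 4 arrays for c6.2 (signal 1060), s100w (1806), tnni2b.1 (1308) and smyhc1 (512), and below them for slbp (413). 4 1A stood above them for cfap299 (4697), knl1 (1223) and tacc3 (2665). 4 2A stood apart for si:ch211-106h4.12 (14.1), mb (2070.1), col1a2 (1621) and ccl25b (348), and 4 2C for hbaa1 (40.0).

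At day 10, 10 1B stood above the other arrays for mbpa (694), hormad1 (768), cfap299 (757), gtsf1 (312) and daw1 (470.2), and below them for col1a1a (13834). 10 1A stood apart for cxcl12b (50.2), and 10 2A for map1lc3a (3259), slc27a1a (674), cd9b (2594) and fstl1b (2199). The DsRed control probe set, outside the genes tested, read 9310 on 4 1B, 10220 on 10 1A and 12520 on 10 1B, against 4.3 to 163 on the other 8 arrays.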

How the results depend on the processing

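Over the 11 arrays with the run as a block 487 probe sets were higher and 273 lower. With the array batch as block 843 were higher and 564 lower, with the run as random block 734 and 478, without the arrays labelled poor 125 and 38 (run as block) or 604 and 428 (batch as block), in batch 1 alone 0 and 0, in batch 2 alone 183 and 91, in a fit over all 32 arrays 259 and 61, with the authors' scaling alone 350 and 479, with an offset of 1 99 and 36, and with a filter on dim probe sets 619 and 402. Without both the poor arrays and 4 1B, an alternative chosen after seeing the data, 1799 were higher and 1674 lower. Leaving out 1 array at a time gave 31 to 1032 higher and 10 to 783 lower. With no block, array weights, all arrays labelled good or a larger offset, counts were 454 to 601 higher and 270 to 379 lower, all within 1.5 times.

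With batch and letter as a replicate block 466 were higher and 219 lower. Whether the letters pair the samples is not stated. The deviations of same-lettered arrays from the mean of their day and batch correlated at -0.349, -0.349, 0.134, 0.074 and 0.037. The first 2 values are those of batch 1, which are equal by construction because it holds 2 arrays of each day. So few values cannot decide whether the letters pair the samples.

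The 111 called genes named above, which were called on many of the same arrays, kept their direction in every alternative, with 1148 lost calls over all genes and alternatives together. Only genes that did not pass the test changed sign. myog was -0.05 in batch 1 alone. With the authors' scaling alone myod1 was -0.42 and pax3a -0.18. pax7a, at 0.00 in the fit reported, was -0.32 with the batch as block, -0.30 with no block, -0.21 with a random block, -0.44 with the replicate block, -0.17 without poor arrays (batch as block), -0.08 in batch 2, -0.20 over 32 arrays, -0.05 over all good arrays, -0.58 with the authors' scaling, -0.34 without poor arrays and 4 1B, and -0.10 to 0.07 with 1 array left out (-0.10 without 4 1B, -0.06 without 10 1A and -0.01 without 10 2B). ncam1a, at -0.57 to 0.40 with 1 array left out, was 0.40 without poor arrays (run as block) or without 4 2D, 0.39 with the batch as block there, over all good arrays and without 4 1B besides, and 0.50 in batch 1. Signals at or below the offset of 32, as for pax3a on 5 arrays, carry little information on a change.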

Other observations

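A list of 12 genes of sterol synthesis had 0 calls and a median change of 0.87, with 1.57 in batch 1, where 10 of the 12 were higher at day 10, and 0.07 in batch 2, where 7 were. Of 17 genes of fatty acid synthesis and storage 0 were called over all arrays and 2 were higher without the arrays labelled poor.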
